A study of Mus musculus with 21 samples.

Results

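The Toll-like receptors and their co-receptors were followed through 7 fractions of hematopoietic cells sorted from mouse bone marrow. The set holds 10 genes: the receptors Tlr1, Tlr2, Tlr4, Tlr5, Tlr6, Tlr7 and Tlr9, the co-receptors Cd14 and Ly86, and the adaptor Myd88. They were taken by name, as the probes whose RefSeq accession maps to these symbols, with the brightest probe kept for each gene. Of the 10, 9 have a probe, 1 each, and all 9 were well above background in at least 1 fraction and were tested. No probe matched Tlr5, which was not analysed here. The 9 are among 18213 genes named on the array and 14312 genes tested.

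All cells came from the bone marrow of C57BL/6 mice and were untreated, with 3 arrays for each fraction and 21 arrays in all. KLS cells, which lack lineage antigens and carry Kit and Sca1, hold the stem and multipotent cells. On the erythroid side stand PreMegE (a progenitor of megakaryocytes and erythroid cells, sorted as CD150+ CD105- and negative for Fc gamma receptors), CFUe (colony-forming erythroid progenitors) and Ter119 (CD71+ Ter119+ erythroblasts). On the myeloid side stand PreGM (an early granulocyte and macrophage progenitor), GMP (its successor, positive for Fc gamma receptors) and Mac1Gr1 (Mac1+ Gr1+ maturing granulocytes and monocytes). The labels write the same combination, CD150- CD105- and Fc gamma receptor negative, for CFUe and PreGM, and they write Sca1+ for all 4 intermediate fractions. They give neither the age nor the sex of the mice, nor whether mice were pooled, so p values measure the spread between these samples, which may be technical.

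Toll-like receptors recognize molecules of microbes and pass the signal through adaptors that dock on their cytoplasmic domain. Tlr2 pairs with Tlr1 or Tlr6 at the cell surface to bind bacterial lipopeptides, and Tlr4 binds lipopolysaccharide that Cd14 hands to it together with Ly96 (MD-2). Tlr7 and Tlr9 sit in endosomes, to which Unc93b1 carries them, and bind single-stranded RNA and unmethylated CpG DNA. Ly86 (MD-1) is the partner of the receptor-like protein Cd180, and Myd88 is the adaptor that all the receptors listed here use. In bone marrow these genes are best known from granulocytes, monocytes and dendritic cells, and some are also found in stem and progenitor cells and in B cells.

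CFUe, Ter119 and Mac1Gr1 held the markers their names call for, but some fractions also held markers of other cells, which touches the results below. No list held markers of stem cells or markers particular to PreMegE or PreGM, so the identity of KLS, PreMegE and PreGM was not checked. The summed level of 7 erythroid markers, on the log2 scale, lay between 5.89 and 6.16 in CFUe and between 11.7 and 12.1 in Ter119, against 1.0 to 1.67 in PreGM and -0.57 to -0.06 in GMP. The summed level of 10 granulocytic markers lay between 12.4 and 12.6 in Mac1Gr1, but also between 12.2 and 12.5 in Ter119, where all 10 were well above background on all 3 arrays. In Ter119 the summed level of 5 monocyte markers lay between 8.11 and 8.33 and that of 8 B cell markers between 7.50 and 8.04, each above the values in CFUe (-1.53 to 0.77 and -0.37 to 1.79). In KLS all 10 macrophage markers (among them C1qa, C1qb, Adgre1 and Cd5l) were well above background on all arrays, with a summed level of 6.59, 5.78 and 5.15 on arrays 1, 2 and 3, against 0.03 to 0.95 in PreMegE, 0.58 to 0.87 in PreGM and 4.25 to 5.08 in Mac1Gr1. Of the 9 members, 8 had the same order over the KLS arrays as this sum, highest on array 1 and lowest on array 3, as did 13.8% of all probes tested. Mac1Gr1 also held B cell markers, with a summed level between 5.19 and 6.02. The part that transcripts of other cells have in the KLS, Ter119 and Mac1Gr1 values below was not tested. Xist, transcribed from the inactive X chromosome of female cells, was above the 75th percentile of the array on arrays 1 and 2 of CFUe and PreGM and on all GMP and Mac1Gr1 arrays, and on no array of KLS, PreMegE or Ter119. On the third arrays of CFUe (-4.47, though well above background) and PreGM (-6.71) it was not. There the Y-linked transcripts Ddx3y, Eif2s3y and Kdm5d were measured, so these 2 arrays stand apart from the other arrays of their fractions.

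Levels are given as the log2 of the background-corrected intensity minus that of the 75th percentile of the same array, so that 0 is the 75th percentile and 1 unit is a 2-fold difference. Levels of different probes are not set against each other. Calls required a change of 2-fold or more together with an adjusted p under 0.05. In these sorted bulk samples, fewer cells of a type and less RNA per cell cannot be told apart.

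**Figure D1:**
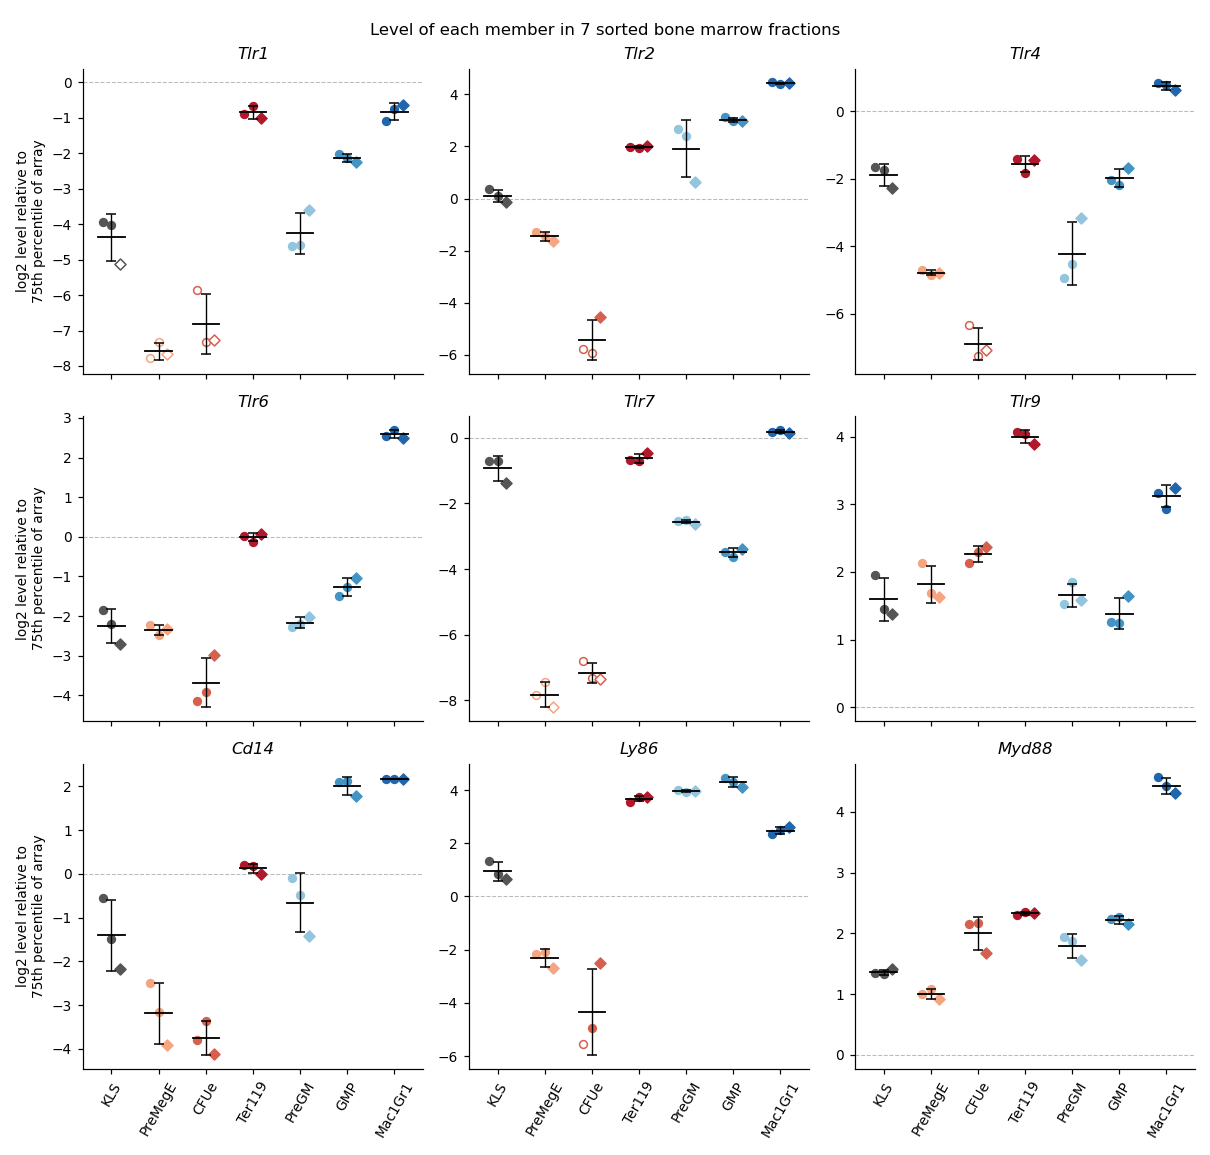
Log2 level of 9 genes, with 0 at the 75th percentile of the array (y axis), in 7 fractions (x axis), with a point for each array. Diamonds mark array 3, open symbols arrays where the probe was not well above background, and bars the mean and SD of 3 arrays; Tlr1 and Tlr7 have 3 open symbols each in PreMegE and CFUe, while Tlr9 and Myd88 have none in any fraction.

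The RefSeq start sites of the members were searched for the letters of the binding sites that the study works with, since most members move together between the lineages. Cd14 was left out of this search, so the counts below do not cover it, and no entry was found for Tlr4 or Tlr7. For the other 7 members RefSeq promoter entries (GRCm38.p6) were found, with 9 windows between them. These are 1 each for Tlr2, Tlr5, Tlr9, Ly86 and Myd88 and 2 each for Tlr1 and Tlr6. In the 250 bases before the start, on either strand, none of the 9 windows held the extended PU.1 motif GGAAGTG, which 8.55% of all 32851 windows hold. None held AGATAAG, a motif of GATA factors, either, which is present in 2.74% of them. The plain ETS core GGAAG, which 64.1% of all windows hold, was found in windows of Tlr1, Tlr2, Tlr6, Tlr9 and Ly86 and in none of Tlr5 or Myd88. Tlr1 also held GAGGAAGT, which overlaps the ETS core and is present in 2.44% of all windows, with its first base 23 bases before the start. Of 5 further strings searched, TTGCNNAAT (2.11% of windows) matched 1 window of Tlr6, and TTGCGCAA (0.164%), an NF-kappaB site (0.14%), an interferon-stimulated response core (0.569%) and an ETS-IRF composite (2.3%), which can overlap the ETS core, matched none. A match describes the letters only. Among the members searched, Tlr1, Tlr2 and Ly86 differed most between GMP and CFUe, and Tlr9 was not called there. The second Tlr1 window, which also holds GGAAG, is not shown. The first window of Tlr1 and those of Tlr2, Ly86 and Tlr9 are shown. Each runs 5′ to 3′ on the strand of its gene, with matches to GGAAG, its complement or GAGGAAGT in capitals.
Tlr1, minus strand, chr5:64933559-64933808: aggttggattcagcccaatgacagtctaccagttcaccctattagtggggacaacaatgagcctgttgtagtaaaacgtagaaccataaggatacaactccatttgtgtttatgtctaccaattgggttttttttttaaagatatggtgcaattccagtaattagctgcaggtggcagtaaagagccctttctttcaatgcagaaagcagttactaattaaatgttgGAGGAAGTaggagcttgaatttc
Tlr2, minus strand, chr3:83841609-83841858: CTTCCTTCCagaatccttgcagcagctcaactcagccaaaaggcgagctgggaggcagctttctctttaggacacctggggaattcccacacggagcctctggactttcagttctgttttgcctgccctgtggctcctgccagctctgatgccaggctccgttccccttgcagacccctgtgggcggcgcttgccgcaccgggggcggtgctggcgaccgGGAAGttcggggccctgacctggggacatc
Ly86, plus strand, chr13:37345095-37345344: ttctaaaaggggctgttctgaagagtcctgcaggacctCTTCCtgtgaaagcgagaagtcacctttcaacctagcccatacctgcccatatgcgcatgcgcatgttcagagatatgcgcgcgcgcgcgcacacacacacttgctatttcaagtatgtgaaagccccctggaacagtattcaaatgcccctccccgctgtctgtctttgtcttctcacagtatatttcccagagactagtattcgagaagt
Tlr9, plus strand, chr9:106222348-106222597: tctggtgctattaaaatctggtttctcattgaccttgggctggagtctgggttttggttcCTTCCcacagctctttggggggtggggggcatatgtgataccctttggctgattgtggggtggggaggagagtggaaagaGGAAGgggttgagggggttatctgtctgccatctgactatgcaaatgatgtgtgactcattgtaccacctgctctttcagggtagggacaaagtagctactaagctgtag

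Tlr2, the shared subunit of the lipopeptide receptors, ran from its lowest level in CFUe to its highest in Mac1Gr1. On arrays 1, 2 and 3 its level was 0.35, 0.09 and -0.13 in KLS, -1.30, -1.42 and -1.63 in PreMegE and -5.79, -5.94 and -4.54 in CFUe, where only array 3 was well above background. It was 1.97, 1.95 and 2.02 in Ter119, 2.67, 2.42 and 0.65 in PreGM, 3.12, 3.0 and 2.97 in GMP and 4.46, 4.42 and 4.43 in Mac1Gr1. Every fraction of the myeloid side lay above KLS and every progenitor of the erythroid side lay below it, with no overlap between those groups. Ter119 and PreGM, neighbours in the order of the 7 means, did not differ beyond their spread (difference 0.07, SE 0.40, adjusted p = 0.884), and all the other neighbours did.

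Tlr1, a partner of Tlr2, was not well above background on any array of PreMegE or CFUe. Its level was -3.95, -4.01 and -5.14 in KLS (above background on 2 of 3 arrays), -4.61, -4.58 and -3.60 in PreGM, and -2.03, -2.12 and -2.24 in GMP. It reached -0.88, -0.65 and -1.01 in Ter119 and -1.10, -0.75 and -0.64 in Mac1Gr1, and those 2 fractions overlap (difference of Mac1Gr1 minus Ter119 0.02, SE 0.37, adjusted p = 0.966). Tlr6, the other partner and the neighbour of Tlr1 on chromosome 5, was above background on all 21 arrays. Its mean level was -2.26 in KLS, -2.34 in PreMegE and -2.16 in PreGM, which did not differ beyond their spread, and its lowest was -3.67 ± 0.62 (SD, n = 3) in CFUe. From there it stood at -1.27 ± 0.23 in GMP, -0.01 ± 0.11 in Ter119 and 2.58 ± 0.10 in Mac1Gr1, with no overlap between these 3 fractions.

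Tlr4, the lipopolysaccharide receptor, was higher in KLS than in the first progenitors of either side. Its level was -1.66, -1.74 and -2.27 in KLS, -4.71, -4.85 and -4.78 in PreMegE and -4.95, -4.53 and -3.16 in PreGM, and in CFUe no array was well above background. It returned to -2.03, -2.20 and -1.70 in GMP, at the level of KLS (difference 0.08, SE 0.34, adjusted p = 0.877), and reached 0.84, 0.77 and 0.62 in Mac1Gr1. PreGM and PreMegE differed by 0.57 (95% interval -0.15 to 1.28, adjusted p = 0.252), so both first progenitors lay below KLS and did not separate from each other. Cd14, its co-receptor, had another course. Its level was -0.56, -1.49 and -2.17 in KLS, -0.09, -0.48 and -1.41 in PreGM, 2.10, 2.13 and 1.77 in GMP and 2.16, 2.16 and 2.16 in Mac1Gr1, with no difference beyond the spread between the last 2 fractions (0.16, SE 0.39, adjusted p = 0.718).

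Ly86, the partner of Cd180, was the only one of the 9 whose highest mean lay in GMP. Its level was 1.35, 0.83 and 0.65 in KLS, -2.16, -2.09 and -2.69 in PreMegE and -5.55, -4.96 and -2.51 in CFUe, where array 3 lay within the range of PreMegE. It was 4.02, 3.95 and 3.97 in PreGM, 4.46, 4.32 and 4.12 in GMP, 2.33, 2.48 and 2.61 in Mac1Gr1 and 3.56, 3.73 and 3.75 in Ter119. GMP, PreGM and Ter119 did not differ beyond their spread from their neighbours in that order (adjusted p = 0.697 and 0.600), and Mac1Gr1 stood below all 3 of them.

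Tlr7, the endosomal receptor for single-stranded RNA, is X-linked. It was well above background on all arrays of 5 fractions and on none of PreMegE or CFUe. Its level was -0.70, -0.71 and -1.38 in KLS, -0.69, -0.71 and -0.47 in Ter119, -2.55, -2.50 and -2.61 in PreGM, -3.48, -3.63 and -3.37 in GMP and 0.18, 0.24 and 0.14 in Mac1Gr1. It was lower in GMP than in PreGM by less than 2-fold, and the third PreGM array, without Xist, lay 0.09 below the mean of the other PreGM arrays. Tlr9, the endosomal receptor for CpG DNA, was above background on all 21 arrays and had the narrowest range of the receptors. Its mean level was 1.59 in KLS, 1.82 in PreMegE, 2.26 in CFUe, 1.65 in PreGM and 1.38 in GMP, against 3.12 ± 0.16 in Mac1Gr1 and 4.0 ± 0.10 (SD, n = 3) in Ter119. Tlr9 was the single member whose highest level lay in Ter119, where the 3 values of 4.07, 4.04 and 3.89 lay above those of every other fraction.

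Myd88, the adaptor, was measured in every fraction and was highest in Mac1Gr1. Its level was 1.34, 1.32 and 1.41 in KLS, 0.99, 1.08 and 0.92 in PreMegE, 2.15, 2.17 and 1.68 in CFUe and 2.30, 2.35 and 2.34 in Ter119. It was 1.94, 1.87 and 1.56 in PreGM and 2.24, 2.28 and 2.15 in GMP, and then 4.57, 4.42 and 4.31 in Mac1Gr1. Ter119, GMP, CFUe and PreGM did not differ beyond their spread from their neighbours in that order, and Mac1Gr1 stood 2.10 (SE 0.13, adjusted p = 5.46e-10) above Ter119, the second highest. Its probe, like those of Tlr2 and Tlr4, is printed in 10 spots on each array, and the median SD between those spots was 0.052 on the log2 scale (Tlr2: 0.050, Tlr4: 0.099).

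The erythroid steps were compared to see how the receptors behave as KLS cells become erythroid. From KLS to PreMegE most members fell. Tlr7 fell furthest, by at least 24.1-fold (log2 change -6.91, SE 0.20, adjusted p = 2.88e-12), with Ly86 (-3.25, SE 0.49), Tlr1 (at least 2.23-fold lower), Tlr4 (-2.89, SE 0.34), Cd14 (-1.78, SE 0.39) and Tlr2 (-1.55, SE 0.40). In all, 6 of 9 members were called and all 6 were lower, where 12.4% of all probes tested were called 3.55% higher and 8.87% lower. Tlr6 (-0.08, SE 0.25), Tlr9 (0.22, SE 0.17) and Myd88 (-0.36, SE 0.13, adjusted p = 0.0510) were not called. All 10 macrophage markers fell in the same comparison, with a median of -6.04 on the log2 scale (-5.89 with the dim gene at its bound), where the median of the members was -1.78 (-1.55 at their bounds). With slides as a block, the change of Tlr2 was -0.82 and no longer called (adjusted p = 0.317), and with normexp background correction Tlr1 was under 2-fold (-0.53).

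From PreMegE to CFUe, 5 of 9 members were called, where 24.7% of all probes were. Tlr2 fell 15.7-fold (log2 change -3.97, SE 0.40, adjusted p = 3.65e-07), Tlr4 by at least 1.06-fold, Ly86 by 2.03 (SE 0.49) and Tlr6 by 1.33 (SE 0.25) on the log2 scale. These are 4 of 9 members, beside 14.7% of all probes called lower. Myd88 rose, at the edge of the rule (2.0-fold, log2 change 1.0, SE 0.13, adjusted p = 6.14e-06), and this call was kept in 8 of 17 alternatives. Tlr1 and Tlr7 were below background in both fractions and have no fold there, while Cd14 (-0.57, SE 0.39) and Tlr9 (0.45, SE 0.17) were not called. The drop in Ly86 rests on arrays that overlap, since it was at -2.51 on array 3 of CFUe and at -2.69 on array 3 of PreMegE. With background correction by normexp, 1 of 9 members was called, and with a block for sex-chromosome transcripts 3 were.

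From CFUe to Ter119, 8 of 9 members rose and none fell, where 57.1% of all probes were called, 29.2% higher and 27.9% lower. Ly86 rose 260-fold (log2 change 8.02, SE 0.49, adjusted p = 1.31e-10) and Tlr2 169-fold (7.40, SE 0.40), both from a fraction in which they were well above background on 2 arrays and on 1 array. Tlr7 rose at least 19-fold, Tlr1 at least 16.2-fold and Tlr4 at least 9.92-fold, and Cd14 (3.88, SE 0.39), Tlr6 (3.67, SE 0.25) and Tlr9 (1.74, SE 0.17) rose as well. Myd88 differed by 0.33 (SE 0.13, adjusted p = 0.0292), under 2-fold. With spike-in scaling 7 members were called higher and 1 lower, where 69.8% of all probes were called and their median was -1.33. On that scale the rise of Tlr9 was no longer called (0.36, adjusted p = 0.253), and Myd88 was called lower (-1.05). The 10 granulocytic markers rose in the same comparison, all 10 of them, with a median of 10.95 on the log2 scale, and so did all 5 monocyte markers (7.89), all 8 B cell markers (5.78) and 9 of 10 macrophage markers (3.73). The median of the 9 members was 5.33, or 3.88 with the 3 genes below background in CFUe at their bounds, and that of all probes 0.05. All 4 T cell markers rose as well (median 4.79). The part of cells other than erythroblasts in the members' rises was not tested.

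The myeloid steps followed. Between KLS and PreGM, 4 of 9 members were called, 2 in each direction, where 8.62% of all probes were called, 2.11% higher and 6.52% lower. Ly86 rose 8.20-fold (log2 change 3.04, SE 0.49, adjusted p = 0.000287) and Tlr2 3.50-fold (1.81, SE 0.40, adjusted p = 0.00338), while Tlr4 fell 5.0-fold (-2.32, SE 0.34) and Tlr7 3.08-fold (-1.62, SE 0.20). All 10 macrophage markers fell as well (median -6.23, or -5.50 with the dim gene at its bound), while 4 of 5 monocyte markers rose (median 2.65), and their part in these changes was not tested. Tlr1 (0.10, SE 0.37), Tlr6 (0.10, SE 0.25), Tlr9 (0.06, SE 0.17), Cd14 (0.75, SE 0.39) and Myd88 (0.43, SE 0.13) were not called. Without the third PreGM array Cd14 was called as well (1.13, adjusted p = 0.0491), as it was without the first KLS array (1.17, adjusted p = 0.0414).

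From PreGM to GMP, 4 of 9 members rose, where 10.4% of all probes were called, 4.01% higher and 6.35% lower. Cd14 rose 6.32-fold (log2 change 2.66, SE 0.39, adjusted p = 7.64e-05), Tlr4 4.72-fold (2.24, SE 0.34) and Tlr1 4.38-fold (2.13, SE 0.37). Tlr2 was 2.17-fold higher (1.12, SE 0.40, adjusted p = 0.0484), and this call was lost in 11 of 17 alternatives; without the third PreGM array the change was 0.49 (adjusted p = 0.250). Tlr6 was 0.89 (SE 0.25) higher and Tlr7 0.94 (SE 0.20) lower, both past the threshold on p and under 2-fold. The lipopolysaccharide receptor and its co-receptor both rose at this step, and Ly86 (0.32, SE 0.49) and Tlr9 (-0.27, SE 0.17) were not called.

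From GMP to Mac1Gr1, 7 of 9 members rose and 1 fell, where 56.7% of all probes were called, 29.1% higher and 27.6% lower. Tlr6 rose 14.5-fold (log2 change 3.86, SE 0.25, adjusted p = 2.19e-10), Tlr7 12.9-fold (3.69, SE 0.20) and Tlr4 6.58-fold (2.72, SE 0.34). Myd88 rose 4.63-fold (2.21, SE 0.13), Tlr9 3.33-fold (1.73, SE 0.17), Tlr2 2.65-fold (1.40, SE 0.40) and Tlr1 2.47-fold (1.30, SE 0.37). With slides as a block the last pair was no longer called (Tlr2 0.82, adjusted p = 0.138; Tlr1 1.14, adjusted p = 0.0890). Ly86 fell 3.54-fold (-1.82, SE 0.49, adjusted p = 0.00291), and Cd14 was not called (0.16, SE 0.39). Scaling to the spike-in RNAs moved the median of all probes in this comparison to -1.86. On that scale Tlr1 (-0.73), Tlr2 (-0.63) and Tlr9 (-0.30) lay on the other side of 0 and were not called, and Tlr4 (0.69, adjusted p = 0.125) and Myd88 (0.18, adjusted p = 0.600) were no longer called either. Cd14 was lower there (-1.87, adjusted p = 0.00126), and 2 of the 7 rises were left, those of Tlr6 and Tlr7. All 8 B cell markers (median 3.69), 9 of 10 macrophage markers (3.06) and all 10 granulocytic markers (9.84) rose from GMP to Mac1Gr1 too, and the part of such cells in the members' rises was not tested.

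**Figure D2:**
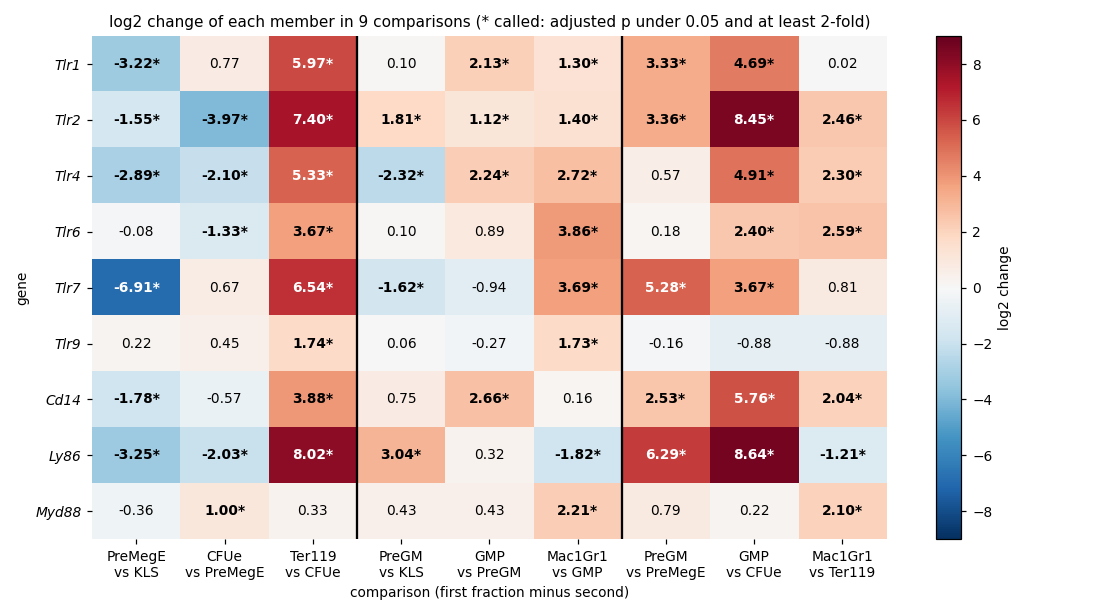
Log2 change (colour and printed value) of 9 genes (y axis) in 9 comparisons (x axis, first fraction minus second), with the erythroid steps at left, the myeloid steps in the middle and the lineages at the same stage at right. An asterisk marks a call at an adjusted p under 0.05 and at least 2-fold; 7 of 9 genes are called higher in GMP than in CFUe, and Tlr9 is called in none of the 3 lineage comparisons.

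The lineages were then compared at the same stage, as myeloid minus erythroid. PreGM stood above PreMegE in 5 of 9 members and below it in none, where 12% of all probes were called, 6.25% higher and 5.79% lower. Ly86 was 78.2-fold higher (log2 difference 6.29, SE 0.49, adjusted p = 4.82e-08), Tlr2 10.3-fold (3.36, SE 0.40) and Cd14 5.78-fold (2.53, SE 0.39), and Tlr7 was at least 7.83-fold and Tlr1 at least 2.40-fold higher. Myd88 (0.79, SE 0.13, adjusted p = 0.000181) lay under 2-fold, as did Tlr1 with normexp correction (0.71). Tlr4 (0.57), Tlr6 (0.18, 95% interval -0.34 to 0.70) and Tlr9 (-0.16, 95% interval -0.53 to 0.20) were not called. The first progenitors thus differed in the co-receptors and in Tlr1, Tlr2 and Tlr7, and not beyond the spread in Tlr4, Tlr6 or Tlr9. All 5 monocyte markers were higher in PreGM too, with a median of 5.92 on the log2 scale.

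GMP stood above CFUe in 7 of 9 members and below it in none, where 26.3% of all probes were called and 14.2% were called higher. The differences were 8.64 (SE 0.49) for Ly86, 8.45 (SE 0.40) for Tlr2, 5.76 (SE 0.39) for Cd14 and 2.40 (SE 0.25) for Tlr6 on the log2 scale. Tlr4 was at least 7.42-fold, Tlr1 at least 6.66-fold and Tlr7 at least 2.58-fold higher in GMP. With normexp correction Tlr7 differed by 0.64 and was not called. Tlr9 was the member that leaned the other way, by -0.88 (SE 0.17, adjusted p = 0.000394), and passed 2-fold only without the third GMP array (-1.01). Over the alternatives its difference ran from -1.01 to 0.50, so its sign depends on the processing. Myd88 differed by 0.22 (SE 0.13, 95% interval -0.05 to 0.50). Without the third arrays of CFUe and PreGM the count was again 7 of 9. All 5 monocyte markers (median 6.99), 7 of 10 macrophage markers (1.97) and 6 of 10 granulocytic markers (2.14) were higher in GMP too, and none of these lists held a marker called lower. The part of such cells in the members' differences was not tested.

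Mac1Gr1 stood above Ter119 in 5 members, Tlr2, Tlr4, Tlr6, Cd14 and Myd88, and below it in Ly86, where 41.9% of all probes were called, 19.9% higher and 22% lower. Tlr6 differed by 2.59 (SE 0.25, adjusted p = 9.34e-08), Tlr2 by 2.46 (SE 0.40), Tlr4 by 2.30 (SE 0.34), Myd88 by 2.10 (SE 0.13) and Cd14 by 2.04 (SE 0.39). Ly86 was 1.21 lower on the log2 scale than in Ter119 (log2 difference -1.21, SE 0.49, adjusted p = 0.0395), a call that was lost when any single array of either fraction was left out (adjusted p = 0.0596 to 0.0943). With the sex-chromosome block 4 members were called, Cd14 no longer among them (1.21, adjusted p = 0.0550), and Ly86 stood at 0.16 (adjusted p = 0.829). Tlr7 (0.81, SE 0.20) and Tlr9 (-0.88, SE 0.17) lay under 2-fold on opposite sides, and Tlr1 differed by 0.02 (SE 0.37). All 8 B cell markers were lower in Mac1Gr1 than in Ter119 (median -1.85), as were all 4 plasmacytoid dendritic cell markers (-2.06), while 8 of 10 macrophage markers (1.64) and 3 of 10 granulocytic markers (0.82) were higher. Of 4 T cell markers, 3 were lower in Mac1Gr1 (median -1.71). The part of all these cells in the members' differences was not tested.

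The difference between the same step of both lineages was tested as such. At the step from PreGM to GMP against that from PreMegE to CFUe, Tlr1 and Tlr7 were below background in both erythroid fractions and are left out, and all 7 of the others passed at an adjusted p under 0.05, where 34% of all probes did. The change on the myeloid side minus that on the erythroid side was 5.09 (SE 0.56) for Tlr2, at least 2.32 for Tlr4, 3.23 (SE 0.55) for Cd14, 2.35 (SE 0.69) for Ly86 and 2.22 (SE 0.35) for Tlr6 on the log2 scale. It ran the other way for Tlr9 (-0.72, adjusted p = 0.0309) and Myd88 (-0.57). The Tlr2 and Ly86 values rest partly on CFUe signals near background. At the last step, Mac1Gr1 against GMP minus Ter119 against CFUe, 7 of 9 members passed, where 54.8% of all probes did, and Tlr6 (0.19, SE 0.35, adjusted p = 0.672) and Tlr9 (-0.00, SE 0.24, adjusted p = 0.997) did not pass. In 6 of the other 7 members the change was larger on the erythroid side, furthest in Ly86 (-9.85, SE 0.69), and in Tlr1, Tlr4 and Tlr7, dim in CFUe, the difference at the bounds was -2.72, -0.59 and -0.56. In Myd88 it was larger on the myeloid side (1.88, SE 0.18). CFUe, from which the erythroid step starts, had the lowest mean of all fractions in Tlr2, Tlr4, Tlr6, Cd14 and Ly86.

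The third arrays of CFUe and PreGM differed from the other arrays of their fractions in some members. Tlr2 on the third PreGM array lay 1.89 below the mean of the other PreGM arrays, which were 0.25 apart, and Cd14 lay 1.13 below and Tlr4 1.58 above. On the third CFUe array Ly86 lay 2.74 above the mean of the other CFUe arrays, Tlr2 1.33 and Tlr6 1.06 above. Over all probes tested, 10.2% differed 2-fold or more between the third CFUe array and the mean of the others, against 5.12% between the others, and 7.02% against 3.02% in PreGM. The summed granulocytic level was 4.41 on the third CFUe array and 1.88 and 1.84 on the others, and 5.11 on the third PreGM array against 2.45 and 2.01. Xist was not well above background on any KLS, PreMegE or Ter119 array, while the Y-linked transcripts were on all of them. GMP and Mac1Gr1 arrays all carry Xist, with no Y-linked transcript well above background. Between these groups of fractions, as in Mac1Gr1 against Ter119, sex and fraction cannot be told apart. PreMegE against KLS and Mac1Gr1 against GMP compare fractions with the same sex-linked transcripts. Without array 3 of both fractions, 6 of 9 members were called between CFUe and PreMegE (5 with them), 5 of 9 between PreGM and KLS (4 with them) and 3 of 9 between GMP and PreGM (4 with them). The call added between CFUe and PreMegE was Tlr1, whose signal was below background in both.

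**Figure D3:**
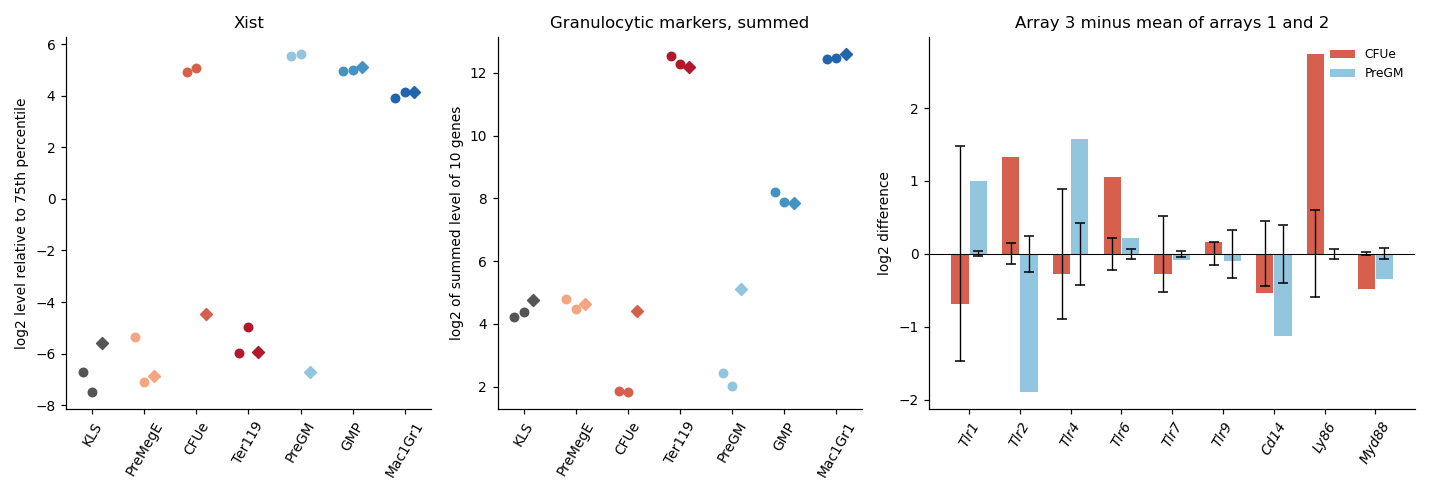
Left: log2 level of Xist by array in 7 fractions; middle: log2 of the summed level of 10 granulocytic markers by array, with array 3 as a diamond in both. Right: for 9 genes (x axis), the log2 difference of array 3 from the mean of arrays 1 and 2 in CFUe and PreGM (bars), with black whiskers for the gap between arrays 1 and 2; Ly86 in CFUe stands at 2.74 and Tlr2 in PreGM at -1.89.

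Around the members, 53 further genes of the pathway were listed in 6 groups, of which 49 had a probe and 48 were tested. Of the other receptors, Tlr8 was well above background only in Ter119 (-3.22 ± 0.60, n = 3) and Mac1Gr1 (-1.26 ± 0.33), Tlr3 on a single array, of GMP, and no probe matched Tlr11, Tlr12 or Tlr13. Between GMP and CFUe, the 7 accessory and trafficking genes counted 5 higher and 1 lower, the 16 adaptors and kinases 4 higher, the 7 transcription factors 1 higher and 1 lower, the 8 negative regulators 3 higher and the 9 response genes 8 higher, where 14.2% of all probes were called higher and 12% lower. The group medians in that comparison were 1.33, 0.25, 0.05, 0.35 and 3.63 on the log2 scale, beside 4.69 for the 9 receptors and co-receptors and -0.22 for all probes. With genes dim in 1 of the fractions at their bounds, the medians were 1.08 for the accessory genes, 3.22 for the response genes and 2.74 for the receptors and co-receptors, and the others stayed as they were.

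Unc93b1, which carries the endosomal receptors, was 3.20 (SE 0.26) higher in PreGM than in PreMegE and 6.57 (SE 0.26, adjusted p = 1.58e-12) higher in GMP than in CFUe. Its mean level fell from 2.64 in KLS to -2.61 in CFUe and was 4.26 in Ter119, while that of its cargo Tlr9 was 1.59, 2.26 and 4.0. Tlr9 so kept its level in CFUe, where Unc93b1 had its lowest. Ly96, the partner of Tlr4, was not called between GMP and CFUe (0.19, SE 0.20) or between PreGM and PreMegE (-0.04, SE 0.20), and rose by 3.66 (SE 0.20, adjusted p = 3.16e-11) from GMP to Mac1Gr1. Cd180, the partner of Ly86, was chosen after its values were seen: its level was -3.47 ± 0.34 (SD, n = 3) in PreGM, -4.50 ± 0.39 in GMP and -1.65 ± 0.42 in Ter119, its highest. Ly86 and its partner thus had their highest means in different fractions. Hsp90b1, a chaperone that folds Toll-like receptors, fell by 2.29 (SE 0.13) from GMP to Mac1Gr1, the step at which 7 members rose.

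Among the signalling genes, Tirap, which bridges Tlr2 and Tlr4 to Myd88, rose by 3.50 (SE 0.13, adjusted p = 3.77e-13) from GMP to Mac1Gr1. Ikbke, a kinase upstream of interferon regulatory factors, was 4.35 (SE 0.17) higher in GMP than in CFUe and fell by 2.05 (SE 0.17) from GMP to Mac1Gr1. Irf5, which acts downstream of Myd88, was 2.69 (SE 0.24) higher in PreGM than in PreMegE. Irf7, the factor that couples Tlr7 and Tlr9 to type I interferon, was 2.40 lower in GMP than in CFUe (log2 difference -2.40, SE 0.20) and then rose by 5.09 (SE 0.20) to Mac1Gr1. Of the inhibitors, Irak3 was 3.39 (SE 0.20) higher in GMP than in CFUe and Socs1 rose by 2.28 (SE 0.21) from GMP to Mac1Gr1. Tnfaip3 (A20) went the other way, 2.07 lower in PreGM than in PreMegE (log2 difference -2.07, SE 0.38) and down again from GMP to Mac1Gr1 (-3.31, SE 0.38).

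Response genes were measured in progenitors as well as in mature cells. Ccl3, a chemokine, had levels of 4.63, 4.27 and 3.91 in KLS and 4.96, 5.13 and 3.96 in PreGM against -2.14, -2.30 and -3.32 in PreMegE, and PreGM exceeded PreMegE by 7.27 (SE 0.68, adjusted p = 4.17e-07). Tnf was 6.96 (SE 0.43) higher in GMP than in CFUe. Il1b rose by 8.12 (SE 0.70, adjusted p = 1.20e-08) from GMP to Mac1Gr1, while Ccl4 fell by 2.24 (SE 0.41) at that step. Il6 was the response gene that was called lower in PreGM than in PreMegE (-1.69, SE 0.59, adjusted p = 0.0421). Of the 9 response genes, 7 were higher in PreGM than in PreMegE and 1 lower (6.25% and 5.79% of all probes), and 4 were higher and 3 lower in Mac1Gr1 than in Ter119 (19.9% and 22% of all probes).

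**Figure D4:**
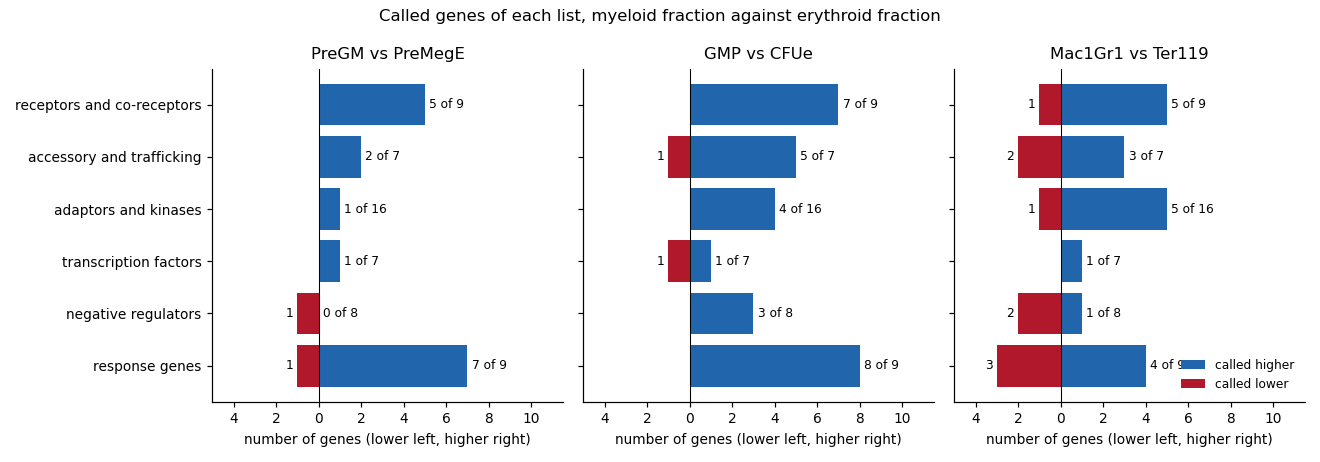
Number of genes called higher (right of 0) and lower (left of 0) in the myeloid fraction (x axis) in the 9 receptors and co-receptors and in 5 other groups of the pathway (y axis), for 3 comparisons. The labels give the number higher of those tested; 7 of 9 receptors and co-receptors and 8 of 9 response genes were higher in GMP than in CFUe.

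The genes next to the members on the chromosome differed in how closely they followed them. F13a1, the neighbour of Ly86, ran at 4.59 in PreGM, 5.44 in GMP, 2.62 in Mac1Gr1, 4.07 in Ter119 and -5.03 in CFUe, so that it too was highest in GMP and lowest in CFUe; Rreb1, on the other side of Ly86, was lowest in Ter119 (-1.18). Tlr9 lies between Twf2 and Alas1. Alas1, the housekeeping enzyme of heme synthesis, had its highest mean in GMP (6.48) and Twf2 in Mac1Gr1 (6.60), while Tlr9 had its lowest in GMP. Tlr8, beside Tlr7, shared the rises in Ter119 and Mac1Gr1 but was below background in KLS, PreGM and GMP, where Tlr7 was measured.

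**Figure D5:**
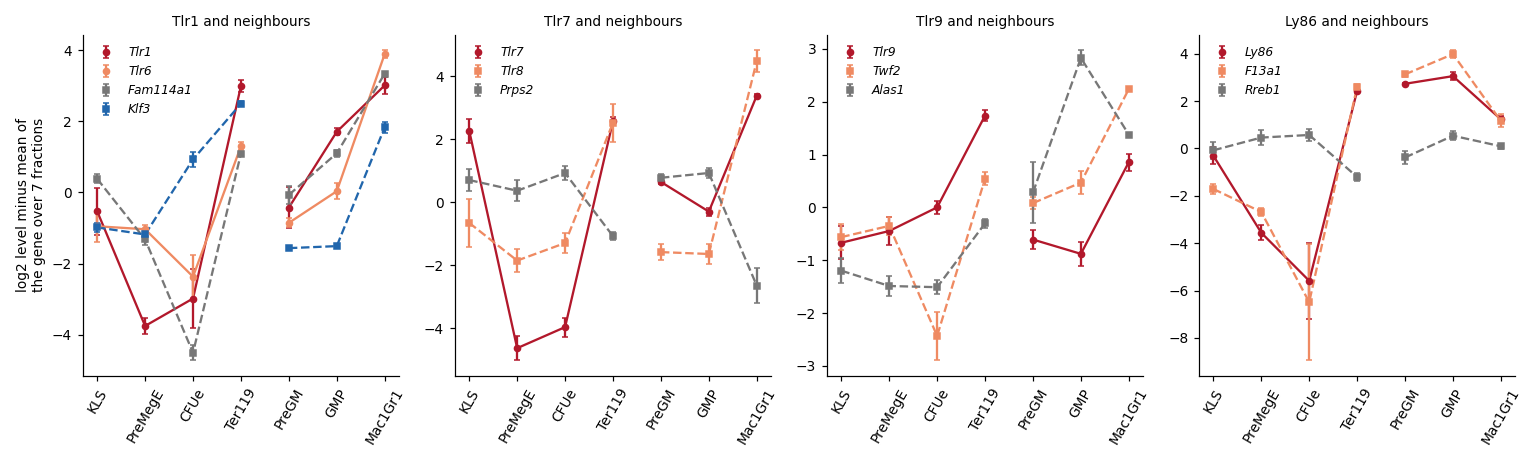
Log2 level minus the mean of each gene over the 7 fractions (y axis) by fraction (x axis), with the SD of 3 arrays, for Tlr1 with Tlr6, Tlr7, Tlr9 and Ly86 (solid lines and circles) and their chromosomal neighbours (dashed lines and squares). Lines join the fractions of one side; Ly86 and F13a1 are both highest in GMP and lowest in CFUe, while Tlr9 has its lowest mean in GMP, where Alas1 has its highest.

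Likeness was measured as the Pearson correlation over the 7 fraction means with 14311 other genes, for the 6 members that were above background on at least 1 array of each fraction. With 7 points and so many genes, very high values are reached for every member, and they are given as a description. The nearest genes were Atp8b4 for Tlr2 (0.995), Mcam (0.998) and then Tirap (0.997) for Tlr6, Ccdc187 for Tlr9 (0.999), Atrnl1 for Cd14 (0.989), Klrb1f for Ly86 (0.993) and Bnip2 for Myd88 (0.995). Among the members themselves, Tlr2 correlated with Cd14 at 0.931 and with Ly86 at 0.904, and with Tlr9 at 0.210.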

How the data were processed

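Total RNA of 7 sorted fractions, 3 arrays each, was labelled with Cy3 and hybridised to 1-colour Agilent whole mouse genome arrays. The deposited scanner files hold a background-corrected intensity per spot, written by the scanner software of the authors, Agilent Feature Extraction 10.7.1.1. A deposited table of the whole series gives log2 values after normalization by the authors between arrays, who name limma for it; the settings are not given in the sources used here. The table served as an alternative. Groups and replicate numbers came from the labels.

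From the intensities, log2 values minus the 75th percentile of each array over 43379 non-control spots were computed. Outlier spots were left out (80 to 283 per array), no spot was saturated, and spots of a probe were averaged, giving 41174 probes. Tests were limited to the 29533 probes that stood well above background throughout at least 1 fraction. They used limma 3.58.1 (lmFit and eBayes, two-sided; R 4.3.3), in 1 fit with a mean per fraction (14 residual degrees of freedom), with Benjamini-Hochberg adjustment over these probes in each comparison. Intervals cover 95%. The number of arrays limits the precision; between 56.5% and 77.4% of probes were well above background on an array. Where 1 of 2 fractions had no array well above background, folds are lower bounds against the higher of the dim probe's own signal and the lowest signal well above background on each array. RefSeq accessions gave the symbols through a GRCm38.p6 table (64.8% of probes), and promoter windows from a RefSeq table of that build.

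Named genes are all members and, of each pathway list, the largest called rise and fall in 3 comparisons (Mac1Gr1 vs GMP, GMP vs CFUe, PreGM vs PreMegE) among genes above background on all 6 arrays. The members, lists and tests were chosen with earlier results of these data known. Alternatives were quantile scaling, spike-in scaling (7 of 10 sequences), normexp correction with offset 50, the series table, no filter on dim probes, the slide (9 slides) or the replicate number as a block, a fit of 2 fractions alone, no minimum fold, and leaving out each array; a block for sex-chromosome transcripts and leaving out the third CFUe and PreGM arrays together were added once the data had been seen. Scanning took 1 day for all arrays. Simulated data for GMP vs PreGM (29533 probes) gave 82% of 100 probes changed by 1.5 and 97% of 100 changed by 3 on the log2 scale, with 4 false calls. Their noise was independent between arrays, without a slide effect or a deviating array, so they do not give the error rate of the real arrays. Figures were drawn with Python 3.11.15 and matplotlib 3.10.9.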

Additional observations from a re-analysis of the deposited data

Results flagged for a closer look

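The same step differed between the erythroid and the myeloid side in 15 of 18 tests (limma, difference of the 2 changes, adjusted p under 0.05), where 34% of all probes passed at the second step and 54.8% at the third, and Tlr1 at the second step and Tlr6 and Tlr9 at the third did not pass. At the second step, the change from PreGM to GMP minus that from PreMegE to CFUe was 5.09 for Tlr2, 4.34 for Tlr4, 3.23 for Cd14, 2.35 for Ly86 and 2.22 for Tlr6 on the log2 scale, and -1.61 for Tlr7, -0.72 for Tlr9 and -0.57 for Myd88. At the third step, the change from GMP to Mac1Gr1 minus that from CFUe to Ter119 was -9.85 for Ly86, -6.00 for Tlr2, -4.67 for Tlr1, -3.72 for Cd14, -2.86 for Tlr7 and -2.61 for Tlr4, and 1.88 for Myd88. The Tlr7 value at the second step comes from signals below background in both PreMegE and CFUe and measures no difference. The Tlr2 and Ly86 values at both steps rest partly on CFUe signals near background. Tlr4 at the second step and Tlr1, Tlr4 and Tlr7 at the third start or end in a CFUe signal below background, and at their bounds these differences are at least 2.32, and -2.72, -0.59 and -0.56. In Ter119 the summed granulocytic level was 12.2 to 12.5, near the 12.4 to 12.6 of Mac1Gr1, and the summed B cell level was 7.50 to 8.04 against 5.19 to 6.02, and their part in the differences at the third step was not tested.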

How the results depend on the processing

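Of 53 calls over 81 pairs of gene and comparison, 34 were kept under every alternative run. Scaling to the spike-in RNAs changed the most: the median of all probes became 0.99 for GMP vs PreGM and -1.86 for Mac1Gr1 vs GMP, 7 members were called for GMP vs PreGM and 4 for Mac1Gr1 vs GMP, and changes called on either scale turned in sign for Myd88 in Ter119 vs CFUe (-1.05) and for Tlr1 (-0.73), Tlr2 (-0.63), Tlr9 (-0.30) and Cd14 (-1.87) in Mac1Gr1 vs GMP. Without a minimum fold 7 members were called for GMP vs PreGM. For CFUe vs PreMegE, normexp correction left 1 call and the sex-chromosome block 3. The latter, estimated from the third arrays of CFUe and PreGM alone, turned Ly86 in Mac1Gr1 vs Ter119 (0.16). The replicate block kept 80 of 81 values on their side of the threshold, and Tlr2 in GMP vs PreGM lost its call (log2 change 1.12, adjusted p = 0.0611). Replicate numbers did not pair the samples: correlations of deviations between same-numbered arrays ran from -0.43 to 0.36, and 7 of 21 arrays correlated best with their own number. For 15 pairs of arrays on the same slide the median correlation was 0.11, against 0.003 for same-numbered pairs. Of those 15 pairs, 8 lay over 0.1, so arrays of a slide may not be fully independent. The slide block kept 77 of 81. Leaving out 1 array kept 466 of 486, with no called change turned in sign. The alternative of a second probe could not be run, since each member has 1. The cause of these changes was not tested. Levels near background, in CFUe and PreMegE, are where the signal limits the folds.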
